A study of Mus musculus with 28 samples.

Results

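Choroid plexus RNA of 12 to 14 month old J20+ and J20- mice taken at night was compared, using the 8 libraries that the labels give as J20+ or J20- at zeitgeber time (ZT) 18, out of 16 libraries of this age and 28 in the series. There were 4 mice of each genotype, 1 library per mouse. J20+ mice carry a transgene for human amyloid precursor protein (APP) bearing familial Alzheimer's disease mutations, driven by a platelet-derived growth factor B promoter and active mainly in neurons, and J20- mice are the littermates without it. All were male, were perfused with saline under isoflurane, and belonged to sequencing batch 2. ZT 18 is the middle of the dark phase, when mice are active. The 8 mice of the same age and batch taken at ZT 6, the middle of the light phase, are given beside them.

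The choroid plexus is a sheet of ciliated epithelium over a vascular stroma in the brain ventricles. Its epithelium secretes cerebrospinal fluid (CSF) by moving sodium, chloride and bicarbonate with water from blood to ventricle, releases transthyretin and other carrier proteins, and seals the blood-CSF barrier with tight junctions. It also takes up and degrades amyloid-beta, the peptide that beta- and gamma-secretase cut from APP. The tissue floats on a thin attachment to the brain wall, so dissected pieces can hold neighbouring brain cells.

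The night libraries differed in depth and in the RNA of brain tissue. Total counts were 14.9M, 14.6M, 18.4M and 17.2M in J20- night libraries 1 to 4 and 26.9M, 15.5M, 30.9M and 28.8M in J20+ night libraries 1 to 4. The means were 16.3M ± 1.8M and 25.5M ± 6.9M (SD, n = 4 and 4), a difference of 9.2M with an exact two-sided permutation p of 0.0857, where 0.0286 was the smallest p possible. The neural score, the mean log2 CPM (counts scaled to a common library size) of 55 neuron, oligodendrocyte and astrocyte markers, was 6.18, 5.86, 3.53 and 5.39 in J20- and 2.70, 4.39, 1.53 and 0.93 in J20+ libraries. J20+ library 2 therefore lay inside the J20- range, and the groups overlapped. It was also the shallowest J20+ night library and had the lowest choroid epithelium score of its group, 9.18 against 10.10 to 10.15 in the other J20+ libraries and 9.16 to 9.76 in J20- libraries. The summed level of the neural markers was 2170 to 10700 CPM in J20- and 903 to 3350 CPM in J20+ night libraries. Of the 55 markers, 4 were at 0 in J20+ library 4 (Slc32a1, Slc17a6, Grin2b and Neurod2). Choroid markers were abundant throughout, with a summed level of 31300 to 45300 CPM in J20- and 31100 to 58700 CPM in J20+ libraries. Their best known member, the transthyretin gene Ttr, stood at 7020 to 10700 CPM over the 8 libraries. Day libraries spanned neural scores from 0.87 to 5.08. Mean totals at day were 17.39M ± 2.35M in J20- and 27.19M ± 11.24M in J20+ (SD, n = 4 and 4). They ranged from 15.1M to 20.49M and from 19.55M to 43.89M. The first principal component held 76.7% of the variance of the night libraries. Counts of called genes and list medians are therefore given with and without J20+ library 2. The part of brain tissue or depth in these differences was not tested. Values from a fit with the neural score as a covariate are given beside the others. That score comes from the same counts, and its mean was 5.24 in J20- and 2.39 in J20+ night libraries. The fit therefore cannot separate brain tissue from genotype. In bulk RNA, fewer cells of a type and less RNA per cell cannot be told apart.

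**Figure D1:**
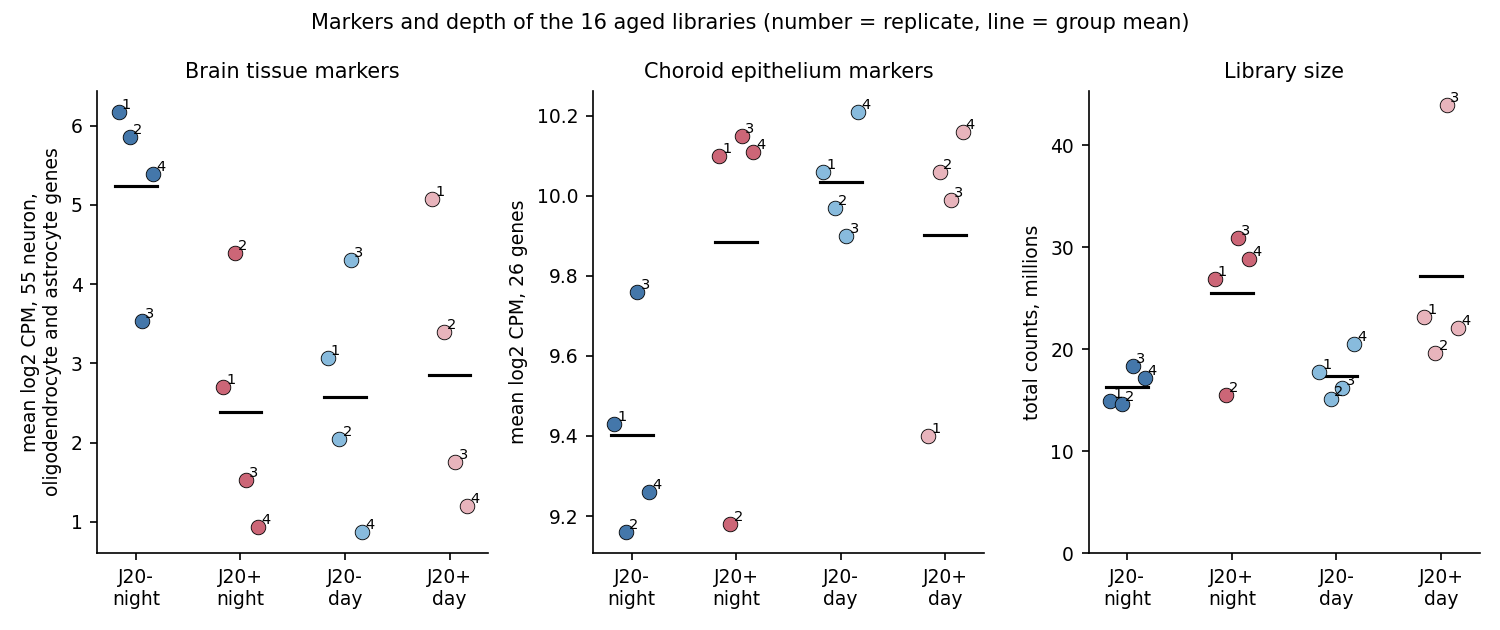
Mean log2 CPM of 55 brain tissue markers (left) and 26 choroid epithelium markers (middle) and total counts (right, M) in the 16 libraries of 12 to 14 month old mice, 1 point per library with its replicate number and a line at each group mean. J20- night libraries have neural scores of 3.53 to 6.18, and J20+ night library 2, at 4.39, lies among them.

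The transgene itself could not be read from the table, which counts reads per mouse gene, and the share of human APP reads that fell on mouse App is not known. Mouse App (Entrez 11820, GRCm38.p6 chromosome 16, 84952666 to 85175255), the gene of the amyloid precursor protein, was at 1440, 904, 1230 and 765 CPM in J20- and 2090, 495, 2120 and 1730 CPM in J20+ night libraries 1 to 4. J20+ library 2 was the lowest of all 8 and the other 3 J20+ libraries the highest. The log2 fold change, J20+ minus J20-, was 0.57 ± 0.34 (standard error, SE), and it did not pass (adjusted p = 0.255, edgeR quasi-likelihood test with Benjamini-Hochberg adjustment over all genes). Without J20+ library 2 it was 0.88 ± 0.20 (adjusted p = 0.00372), and it was -0.03 when libraries were scaled on choroid epithelium markers. In the other mice taken at day it was -0.10 ± 0.34.

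Zbtb20, a zinc finger transcription factor gene on chromosome 16 (Entrez 56490, 42875689 to 43634392) in which the J20 transgene is known to be inserted, was at 3.07, 2.88, 2.19 and 2.97 CPM in J20- and 6.29, 3.05, 20.4 and 16.1 CPM in J20+ night libraries. J20+ library 2 again lay within the J20- range, and the other 3 lay above it. The log2 fold change was 2.05 ± 0.89 (adjusted p = 0.136), 2.37 ± 0.92 without J20+ library 2 (adjusted p = 0.0412) and -0.14 ± 0.87 with the neural score as covariate. The day libraries did not follow genotype. J20- day libraries 1 to 4 held 3.46, 2.07, 2.31 and 35.7 CPM, so the highest level of all 16 was in a library labelled J20-. J20+ day libraries held 8.34, 3.36, 17.5 and 19.9 CPM. Each of the 7 libraries with at least 20.5M counts had 6.29 CPM or more, and each of the 9 shallower ones had 3.46 CPM or less, whatever its genotype. The part of depth in this was not tested. By Zbtb20 level, J20+ night library 2, J20+ day library 2 and J20- day library 4 did not stand with the other libraries of their labelled genotype. The genotype labels were not checked here against reads of the human APP transgene, and whether a label is wrong was not tested.

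**Figure D2:**
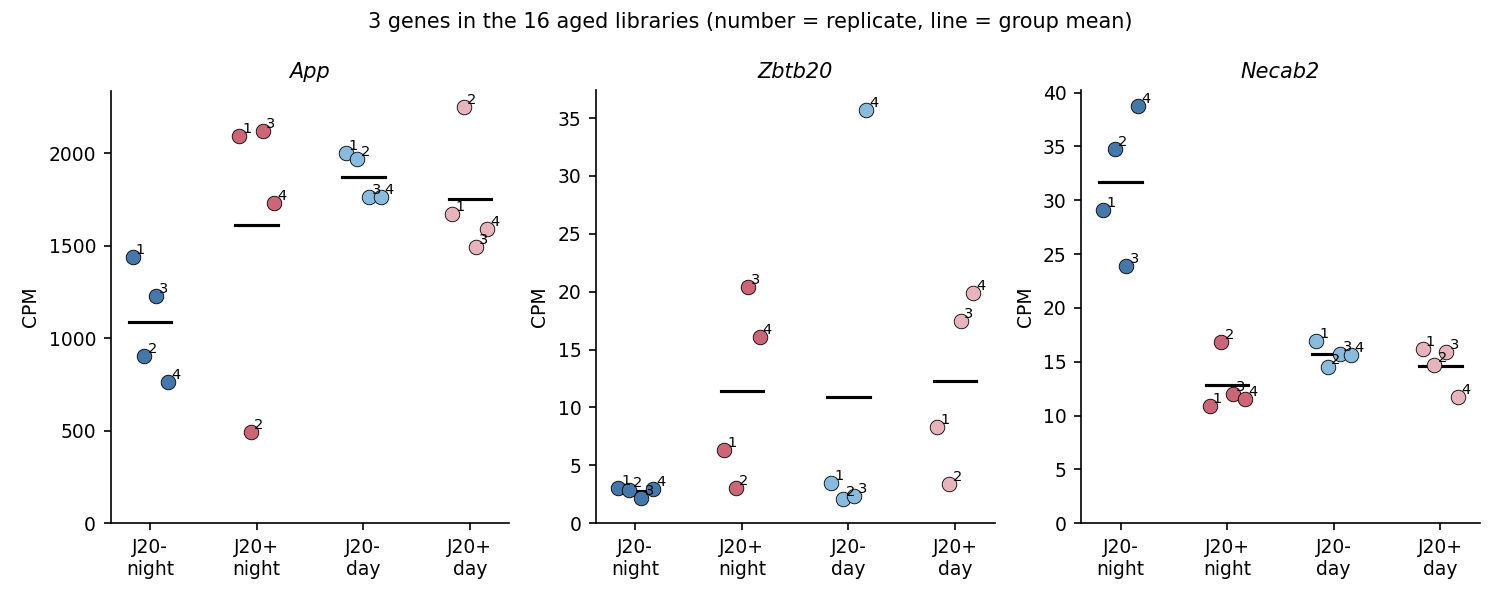
CPM of App, Zbtb20 and Necab2 in the 16 libraries, 1 point per library with its replicate number and a line at each group mean, on linear axes from 0. App and Zbtb20 are low in J20+ night library 2 (495 and 3.05 CPM), Zbtb20 is highest in J20- day library 4 (35.7 CPM), and Necab2 stands apart in J20- night libraries.

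Of 16065 genes tested between J20+ and J20- at night, 1 was called at an adjusted p under 0.05 (0.00622%), and it was lower in J20+. This was Necab2, which encodes a neuronal EF-hand calcium-binding protein that partners G protein-coupled receptors (Entrez 117148, GRCm38.p6 chromosome 8, 119446719 to 119472640). Its level was 29.1, 34.8, 23.9 and 38.8 CPM in J20- and 10.9, 16.8, 12.0 and 11.5 CPM in J20+ night libraries 1 to 4. Every J20+ library lay below every J20- library, J20+ library 2 nearest to them. The mean was 31.6 ± 6.54 CPM in J20- and 12.8 ± 2.70 CPM in J20+ (SD, n = 4 and 4), which is 2.47-fold lower, and the log2 fold change was -1.31 ± 0.17 (adjusted p = 0.0355). Without J20+ library 2 it was -1.46 ± 0.16 (adjusted p = 0.00166). With the neural score as covariate it was -1.04 ± 0.19, and the call was lost (adjusted p = 0.497, unadjusted p = 6.19e-05).

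Necab2 in the day libraries was 14.5 to 16.9 CPM in J20- and 11.7 to 16.2 CPM in J20+, a log2 difference of -0.10 ± 0.17 (adjusted p = 0.989). J20+ night libraries 2 and 3 thus lay within the range of the day libraries, and libraries 1 and 4, at 10.9 and 11.5 CPM, lay just below it. The J20- night libraries lay above all 12 others. The night difference minus the day difference was -1.21 ± 0.24 on the log2 scale (adjusted p = 0.359), so a difference between night and day did not pass over all genes. Over all genes tested, J20- night libraries lay above all 12 other libraries in 64 genes (0.398%) and below them in 148 (0.921%). For J20+ night libraries these counts were 29 (0.181%) and 12 (0.0747%).

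The sequence just before the Necab2 start is shown because it was the single gene called. It spans chr8:119446469-119446718 of GRCm38.p6 on the plus strand, the 250 bases upstream of the RefSeq start, 5′ to 3′, with CG dinucleotides in capitals.
Necab2: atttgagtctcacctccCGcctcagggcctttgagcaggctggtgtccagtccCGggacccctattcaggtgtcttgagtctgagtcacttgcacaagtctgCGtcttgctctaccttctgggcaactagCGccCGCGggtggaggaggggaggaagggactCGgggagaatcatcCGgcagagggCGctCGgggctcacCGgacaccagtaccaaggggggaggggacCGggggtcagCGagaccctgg
The stretch has 64.0% GC and 13 CG dinucleotides, beside medians of 52.4% and 6 over 32851 upstream stretches of the same length in RefSeq. Searched on both strands, it held no E-box (CACGTG, present in 6.0% of the stretches), D-box (TTATGTAA, 0.8%), REV-ERB and ROR motif (AGGTCA, 14.0%), cAMP response element (TGACGTCA, 1.5%) or GC box (GGGCGG, 32.7%).

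Far more genes lay near the threshold than past it. At an unadjusted p under 0.05 there were 5129 genes (31.9%), 3279 higher and 1850 lower in J20+, and at an adjusted p under 0.10 there were 2413 (15%), 1636 higher and 777 lower. Groups that did not overlap were rarer. All 4 J20+ libraries lay above all 4 J20- libraries in 688 genes (4.28%) and below them in 460 (2.86%). With J20+ library 2 left out, these counts were 5119 (31.9%) and 4622 (28.8%), and the fit of 16310 genes then called 4828 as higher (29.6%) and 4586 as lower (28.1%). Leaving out J20- library 3 gave 107 called genes, and leaving out any 1 of the remaining 6 gave 0. With all 8 libraries DESeq2 called 3044 genes and limma-voom with quality weights 11588. With the neural score as covariate, no gene was called by edgeR, whether or not J20+ library 2 was in the fit. There were 975 genes at an unadjusted p under 0.05 with all 8 libraries, and 4584 without J20+ library 2.

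The 19 genes next to Necab2 by p all had an adjusted p of 0.0917 and are given by value. Of these 20 genes, 13 had lower and 7 higher values in J20+. In all but Cit the groups did not overlap, beside 4.28% of all genes with J20+ above and 2.86% below. All 20 passed without J20+ library 2 (adjusted p from 0.00166 to 0.00411), where 29.6% of all genes were called higher and 28.1% lower. The 20 were picked by smallest p in the same libraries, so neither count is independent of that choice. None of the 20 passed with the neural score as covariate. None passed as different between night and day, where the smallest adjusted p of any gene was 0.359.

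Among those with higher values, Numb, an endocytic adaptor that restrains Notch signalling (chromosome 12, 83794034 to 83921942), was at 31.7, 30.1, 28.9 and 29.3 CPM in J20- and 71.9, 50.0, 88.7 and 95.0 CPM in J20+ night libraries. The J20- libraries were close together, and J20+ library 2 was the nearest to them. The log2 fold change was 1.35 ± 0.24, it was 1.51 without that library, and at day it was 0.15 ± 0.24. L3mbtl3, a reader of methylated lysine, was at 83.6, 97.1, 83.2 and 87.1 CPM in J20- and 144, 171, 150 and 182 CPM in J20+ libraries (0.88 ± 0.15). Here J20+ library 2 was not the lowest of its group, and the value without it was 0.86. L3mbtl3 was the 1 gene of the 20 in which J20+ night libraries lay above all 12 others. Slc26a7, an anion transporter gene of secretory epithelia, was at 3.37, 2.58, 3.65 and 3.57 CPM in J20- and 15.8, 4.98, 14.4 and 17.1 CPM in J20+ libraries (1.99 ± 0.41, and 2.26 without J20+ library 2), with J20+ library 2 far below the other 3. Values were also higher for Acacb, the acetyl-CoA carboxylase of mitochondria that restrains fatty acid oxidation (0.89 ± 0.18), Slc25a36, a mitochondrial nucleotide carrier (0.75 ± 0.15), Phldb2, which anchors microtubules at the cell cortex (0.72 ± 0.13), and Mppe1, a phosphoesterase of the secretory pathway (0.67 ± 0.14).

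Among those with lower values, Nexn, an actin-binding protein gene (chromosome 3, 152236982 to 152266350), was at 10.2, 9.47, 5.74 and 9.01 CPM in J20- and 4.29, 3.73, 3.93 and 2.74 CPM in J20+ night libraries (log2 fold change -1.23 ± 0.22). All 4 J20+ libraries also lay below the 8 day libraries, which held 5.54 to 8.22 CPM, and it was the 1 gene of the 20 with that pattern. The non-coding RNA gene 1500009C09Rik was at 28.4, 27.4, 28.7 and 38.9 CPM in J20- and 14.7, 13.1, 9.05 and 13.7 CPM in J20+ libraries (-1.29 ± 0.20). Like Necab2 and the cell adhesion gene Cadm4 (-0.53 ± 0.11), it was higher in J20- night libraries than in all 12 others. Numb, Phldb2, Acacb, Mppe1 and Slc26a7 were lower there than in all others. In Cit, Rasgef1b and Phactr1 the J20- level varied widely and was lowest in library 3, which had the lowest neural score of its group. Library 3 was also the lowest of J20- in Necab2, Nexn, Rtn2, Camk2n1, Cldn10, Gpr149, Ramp3 and 2600006K01Rik, but not in 1500009C09Rik or Cadm4. Cit, the citron kinase gene, was at 18.8, 28.4, 2.14 and 10.2 CPM in J20- and 0.98, 2.60, 1.19 and 0.587 CPM in J20+ libraries (-3.48 ± 0.72). Rasgef1b, an exchange factor gene for small GTPases, was at 9.32, 7.79, 1.88 and 5.74 CPM in J20- and 1.14 to 1.64 CPM in J20+ libraries (-2.15 ± 0.42). Phactr1, a regulator of phosphatase and actin, was at 85.7, 38.0, 17.3 and 85.4 CPM in J20- and 10.3 to 14.6 CPM in J20+ libraries (-2.12 ± 0.44). With the neural score as covariate these 3 values were -1.83, -1.14 and -1.27. Lower values were also found for the receptor partner Ramp3 (-2.67 ± 0.55), the orphan receptor Gpr149 (-2.76 ± 0.55), the claudin gene Cldn10 (-2.18 ± 0.45), the reticulon gene Rtn2 (-1.07 ± 0.21), Camk2n1, an inhibitor of calmodulin-dependent kinase II (-0.89 ± 0.18), and the non-coding RNA gene 2600006K01Rik (-2.40 ± 0.45). Ramp3 also varied widely in J20-, at 21.5, 19.5, 3.29 and 3.47 CPM, against 1.59 to 2.33 CPM in J20+ libraries. Gpr149 and 2600006K01Rik had very low counts. Their J20- means were 1.1 and 0.883 CPM, and J20+ libraries were at 0.0392 to 0.286 and 0.111 to 0.226 CPM.

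**Figure D3:**
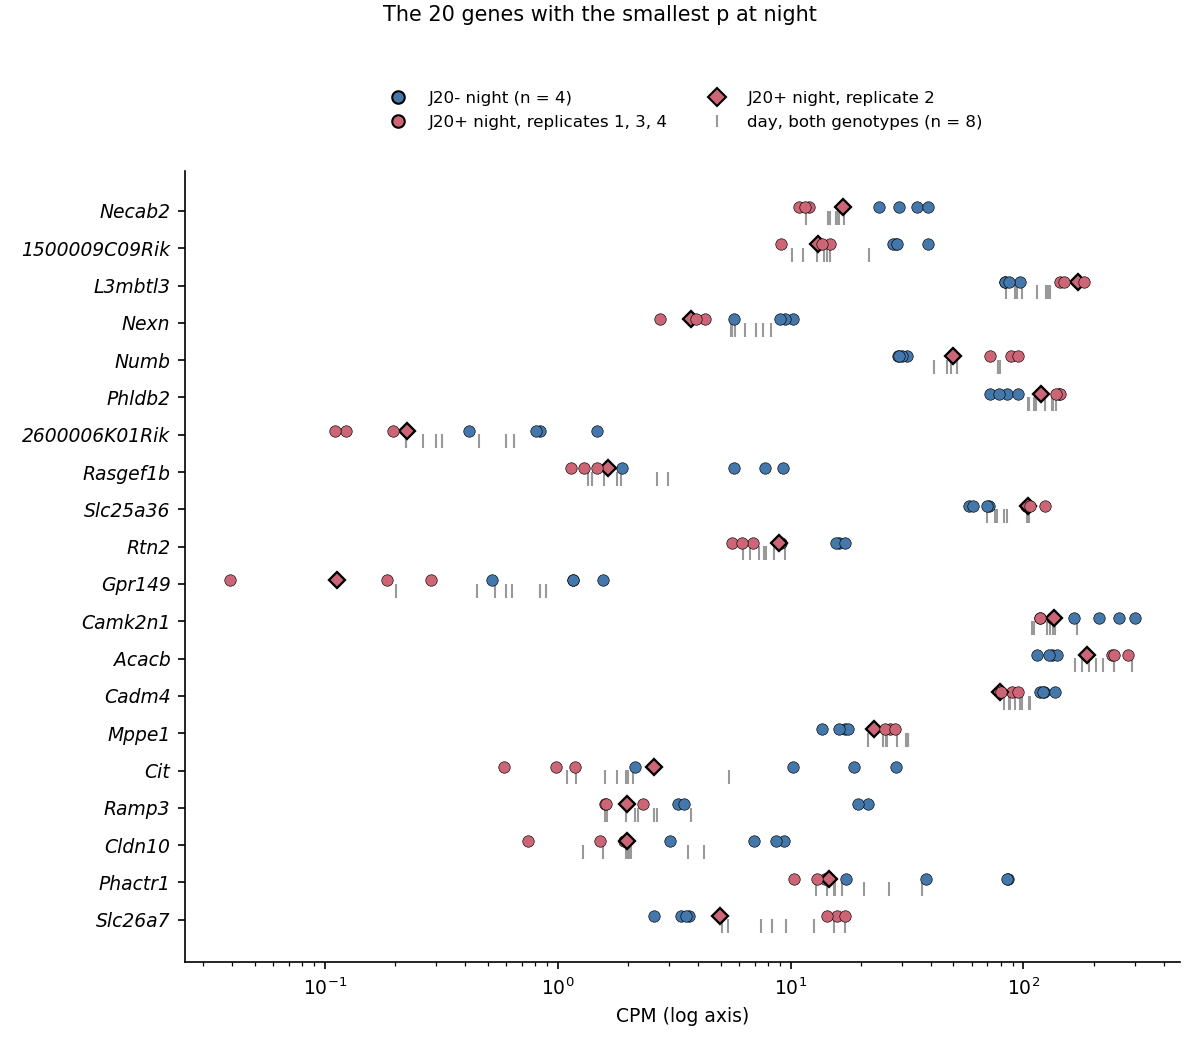
CPM on a log axis of the 20 genes with the smallest p at night, in J20- night libraries (blue), J20+ night libraries (red, replicate 2 as a diamond) and the 8 day libraries (grey ticks). In all but Cit the J20+ and J20- night libraries do not overlap, and Necab2, at 10.9 to 16.8 CPM in J20+ and 23.9 to 38.8 CPM in J20-, was the 1 gene called.

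Gene lists were described by counts and medians, beside a median log2 fold change of -0.01 and positive values in 7952 of all 16065 genes. Scaling on choroid epithelium markers moved the median of all genes to -0.41, a shift that made several small positive medians negative. No list had a called member except the calcium list, through Necab2.

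Genes of the epithelium itself had mostly higher values in J20+ night libraries. Of 26 choroid epithelium markers, 21 had positive values (median 0.52), and none passed. Without J20+ library 2, 17 were called higher and none lower (median 0.62), beside 29.6% and 28.1% of all genes. Trpv4, an osmotically gated calcium channel of the apical membrane, was at 436, 490, 477 and 475 CPM in J20- and 575, 818, 644 and 688 CPM in J20+ libraries (log2 fold change 0.54 ± 0.15). It was the single marker whose groups did not overlap, beside 4.28% of all genes with J20+ above, and J20+ library 2 was its highest. Slc4a5, a sodium bicarbonate cotransporter gene, was at 571, 529, 638 and 516 CPM in J20- and 1190, 622, 1360 and 1140 CPM in J20+ libraries (0.93 ± 0.26), and J20+ library 2 lay in the J20- range. The barrier gene Cldn2 (1.26 ± 0.38) and the serotonin receptor gene Htr2c (0.90 ± 0.29) had the same order. With the neural score as covariate the list's median was 0.08, and at day it was -0.08.

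The 34 tested genes of ion and water transport into CSF had a median of 0.35, with 25 positive. In 3 of them all J20+ libraries lay above all J20- libraries, and in 1, the carbonic anhydrase gene Car4, below, beside 4.28% and 2.86% of all genes. The 3 were Trpv4 and the potassium chloride cotransporter genes Slc12a7 and Slc12a4. Slc12a7 was at 70.2, 77.0, 92.0 and 76.5 CPM in J20- and 134, 97.0, 129 and 129 CPM in J20+ libraries (0.63 ± 0.14). Slc4a10, the basolateral sodium bicarbonate transporter of this epithelium, was at 680, 367, 685 and 368 CPM in J20- and 2310, 357, 2200 and 2140 CPM in J20+ libraries (1.74 ± 0.48), with J20+ library 2 the lowest of all 8. Without that library 20 of the 34 were called higher and 4 lower, beside 29.6% and 28.1% of all genes, and the median was 0.44. The list's median was 0.10 with the neural score as covariate and -0.12 when scaled on choroid markers. Of 28 solute and hormone carriers, 20 were positive (median 0.41), led by Slc23a2, a vitamin C transporter (1.66 ± 0.42, and 1.95 without J20+ library 2). Of 26 junction genes 20 were positive (median 0.35), and of these Cgn, the tight junction protein cingulin, had J20+ libraries at 114 to 146 CPM, all above the 87.4 to 98.8 CPM of J20- (0.43 ± 0.14). Cgn was the 1 junction gene with that order, and in 1 other all J20+ libraries lay below, beside 4.28% and 2.86% of all genes. Of 27 genes of secreted CSF proteins 17 were positive (median 0.31). Among these, Bmp7 (1.02 ± 0.29) and the collagen gene Col8a1 (1.90 ± 0.61) had higher values and the enkephalin precursor Penk, a neuronal gene, lower ones (-3.20 ± 1.03). Receptors for hormones and transmitters ranged from -4.39 for the dopamine receptor gene Drd1 to 1.5 for the growth factor receptor gene Igf2r (22 tested, 15 positive, median 0.64). Without J20+ library 2 the medians of these 4 lists were 0.50 for carriers, 0.42 for junctions, 0.44 for secreted proteins and 0.86 for receptors.

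The APP pathway was examined because the genotype concerns it. Of 22 genes of APP, its relatives and its secretases, 16 had positive values (median 0.44), none passed, and in none did the groups fail to overlap. The alpha-secretase gene Adam10, whose product cuts APP within amyloid-beta, was at 55.8, 31.7, 38.2 and 24.3 CPM in J20- and 133, 18.3, 133 and 134 CPM in J20+ night libraries (1.48 ± 0.49, adjusted p = 0.0926). Its J20+ library 2 was the lowest of all 8 and the other 3 the highest, and the value without that library was 1.84 (adjusted p = 0.00168). Adam17, another alpha-secretase gene (0.60 ± 0.20), and Aph1b, a gamma-secretase subunit gene (1.04 ± 0.39), had the same order. Apba1, a neuronal adaptor of APP, had lower values (-2.84 ± 0.94). The list's median was 0.61 without J20+ library 2, 0.09 with the neural score as covariate, -0.07 when scaled on choroid markers and 0.08 at day.

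Genes that take up, carry or degrade amyloid-beta had a median of 0.29, with 16 of 26 positive, and it was 0.42 without J20+ library 2 and -0.19 when scaled on choroid markers. In 4 of them all J20+ libraries lay above all J20- libraries (Mmp2, Abcc1, Lrp1 and Lrp8) and in 1, the efflux pump gene Abcb1a, below, beside 4.28% and 2.86% of all genes. Mmp2, a matrix metalloprotease that can degrade amyloid-beta, was at 35.9, 39.6, 51.0 and 39.1 CPM in J20- and 54.8, 53.8, 73.4 and 63.9 CPM in J20+ libraries (0.57 ± 0.14). Abcc1, an export pump of the blood-CSF barrier, was at 95.8, 97.7, 96.8 and 87.0 CPM in J20- and 159, 129, 166 and 131 CPM in J20+ libraries (0.63 ± 0.18). Lrp1, the endocytic receptor that clears amyloid-beta, was at 422 to 437 CPM in J20- and 732, 461, 732 and 610 CPM in J20+ libraries (0.56 ± 0.19). In these 3 genes the lack of overlap already places J20+ library 2 on the J20+ side. None passed with all 8 libraries (adjusted p = 0.0917 for Mmp2 and Abcc1 and 0.0937 for Lrp1), and all 3 passed without J20+ library 2, as did 29.6% of all genes in that direction. Day differences were 0.04, 0.00 and -0.07.

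Nearly all genes of lipid synthesis and protein folding had positive values. All 28 tested genes of cholesterol and fatty acid synthesis had positive values (median 0.70, range 0.13 to 2.02), and none passed. In 2 of them, the fatty acid elongase gene Elovl6 and the farnesyl diphosphate synthase gene Fdps, J20+ lay above J20- without overlap, beside 4.28% of all genes. Idi1, an enzyme of the isoprenoid steps, was at 13.5, 5.76, 5.11 and 4.88 CPM in J20- and 38.9, 3.00, 36.4 and 39.9 CPM in J20+ libraries (2.02 ± 0.61, and 2.40 without J20+ library 2). Lss, which closes the sterol rings, was at 29.9, 24.1, 18.3 and 19.9 CPM in J20- and 58.5, 24.1, 55.7 and 60.5 CPM in J20+ libraries (1.11 ± 0.30). In both, J20+ library 2 lay within or below the J20- range. Without it 23 of the 28 were called higher (median 0.93), beside 29.6% of all genes. The median was 0.28 with the neural score as covariate, 0.13 when scaled on choroid markers and 0.15 at day. Among genes for protein folding in the endoplasmic reticulum (ER) and its stress response, 28 of 30 were positive (median 0.48), and in none did the groups fail to overlap. Ern1, the ER stress sensor that splices Xbp1 RNA, was at 8.52, 7.25, 4.38 and 5.29 CPM in J20- and 28.9, 5.54, 43.5 and 35.6 CPM in J20+ libraries (2.16 ± 0.59, and 2.51 without J20+ library 2). Without J20+ library 2, 22 of the 30 were called higher and none lower, beside 29.6% and 28.1% of all genes. The median was 0.73 without that library, 0.12 with the neural score as covariate, 0.03 when scaled on choroid markers and -0.09 at day. Fatty acid oxidation, led by the receptor gene Ppara (0.96 ± 0.29, and 1.19 without J20+ library 2), had 22 of 26 positive with a median of 0.28, which was 0.47 without J20+ library 2 and -0.11 with the covariate.

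The cytosolic ribosome went the other way. Of 73 ribosomal protein genes 8 had positive values (median -0.37), and in 11 of the 73 all J20+ libraries lay below all J20- libraries, beside 2.86% of all genes. Rps21, a small subunit protein gene, was at 107, 118, 151 and 181 CPM in J20- and 85.5, 106, 91.6 and 93.7 CPM in J20+ libraries (-0.57 ± 0.15), and Rps12 was at 97.1, 101, 141 and 154 CPM and 77.3, 95.9, 81.9 and 88.2 CPM (-0.52 ± 0.16). In both genes the groups did not overlap but lay close together, with J20- libraries 3 and 4 highest. The ribosome median was -0.46 without J20+ library 2 (49 called lower and 6 higher, beside 28.1% and 29.6% of all genes), -0.34 with the neural score as covariate and -0.73 when scaled on choroid markers, and it was -0.19 at day. Nuclear genes of respiration had a median of -0.25 (9 of 48 positive), -0.31 without J20+ library 2, -0.33 with the covariate and -0.21 at day. The 13 mitochondrially encoded genes had a median of -0.37. Their J20+ library 2 was above all other night libraries, as in ND1, the gene of a complex I subunit, at 8150 CPM against 2810 to 7140 CPM, and without that library the median was -0.88.

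The night difference also moved with transcript length and GC content. Over 14823 tested genes with a GENCODE transcript (92.3%), the median night log2 fold change was -0.23, -0.03, 0.08, 0.18 and 0.32 over 5 equal groups from the shortest to the longest transcripts. By GC content it was 0.25, 0.17, 0.06, -0.07 and -0.21 over 5 groups from the lowest to the highest. With the neural score as covariate the length medians ran from -0.18 to 0.13, while the GC medians lay from 0.01 to 0.04. J20+ library 2 ran with or beyond the J20- libraries. Its median deviation from the mean of the 8 night libraries was -0.35 log2 CPM in the group of lowest GC, where the other J20+ libraries were at 0.25 to 0.27 and J20- libraries at -0.20 to -0.05. The part of length or GC content in the list medians was not tested.

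**Figure D4:**
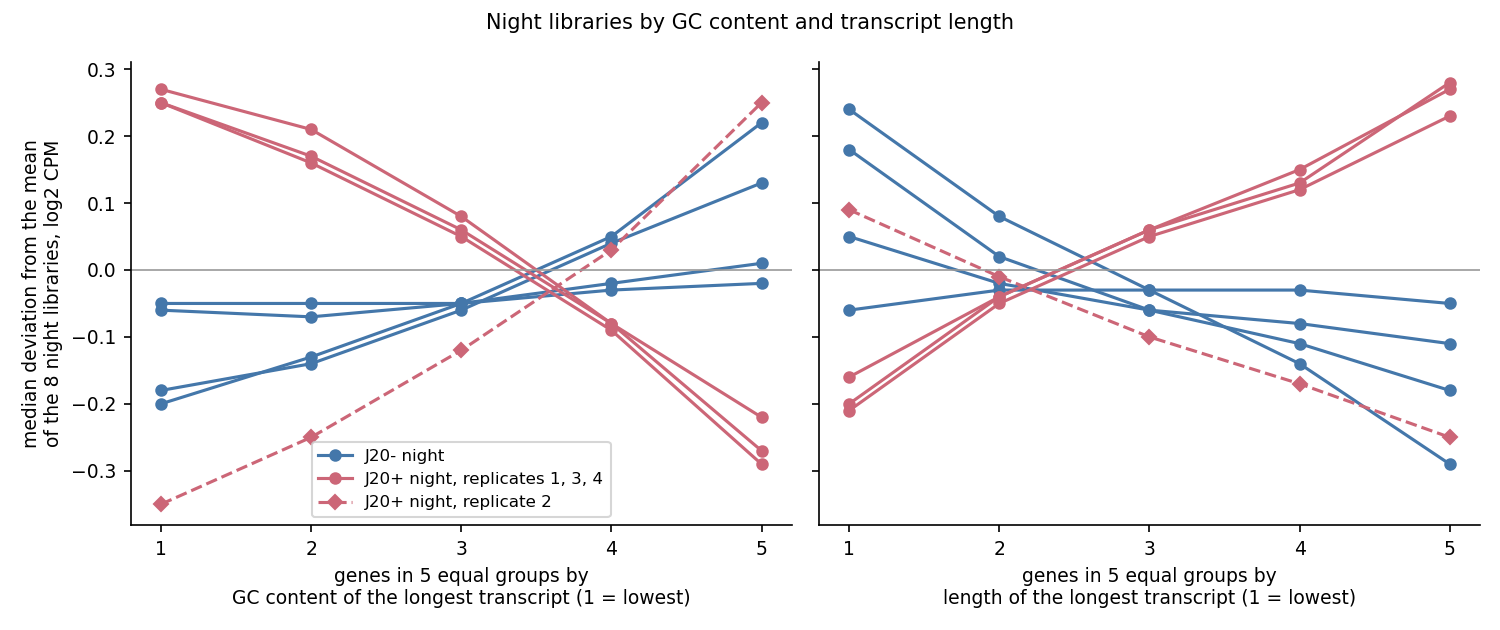
Median deviation in log2 CPM of each night library from the mean of the 8 night libraries, over 5 equal groups of genes by GC content (left) and length (right) of the longest transcript, 1 line per library. J20+ libraries 1, 3 and 4 run from 0.25 to 0.27 at the lowest GC down to -0.29 to -0.22 at the highest, while J20+ library 2 (dashed) runs from -0.35 to 0.25.

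Signalling and stress lists held a few genes in which the genotypes did not overlap at night. In the inflammatory and NF-kB list (26 tested, 17 positive, median 0.23) there were 4 with higher J20+ values, Nfkb1, Birc3, Il1r1 and Osmr, and 1 with lower values, Nfkbia, beside 4.28% and 2.86% of all genes. Nfkb1, the gene of an NF-kB subunit, was at 49.4, 52.8, 53.1 and 47.6 CPM in J20- and 65.6, 64.1, 67.8 and 71.3 CPM in J20+ libraries (0.41 ± 0.10), a small and even difference. Il1r1, the interleukin 1 receptor, was at 78.2, 89.1, 106 and 83.9 CPM in J20- and 110, 111, 158 and 139 CPM in J20+ libraries (0.54 ± 0.18). Nfkbia, whose product holds NF-kB in the cytoplasm, was at 27.9, 29.2, 30.2 and 36.3 CPM in J20- and 23.1, 25.6, 25.1 and 25.9 CPM in J20+ libraries (-0.31 ± 0.11). In these 3 genes the lack of overlap already places J20+ library 2 with its group. Scaling on choroid markers took the Nfkb1 value to -0.04 and the list's median to -0.24. Without J20+ library 2 the median was 0.40. None passed with all 8 libraries, and each of these 3 passed without J20+ library 2 (adjusted p = 0.00354, 0.0145 and 0.0296), where 29.6% of all genes were called higher and 28.1% lower.

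The glucocorticoid response had a median of -0.27 (10 of 28 positive, -0.34 without J20+ library 2), with 3 genes in which J20+ libraries lay below all J20- libraries, beside 2.86% of all genes. Tsc22d3 (GILZ), a classic target of the glucocorticoid receptor, was at 63.0, 54.3, 67.2 and 77.3 CPM in J20- and 46.8, 46.5, 42.3 and 51.0 CPM in J20+ libraries (-0.49 ± 0.13, adjusted p = 0.0917). Its value was -0.45 with the neural score as covariate and -0.48 without J20+ library 2, and 0.06 at day. The other two were Nfkbia and Hsd11b1, the enzyme that reactivates glucocorticoids, which was at 0.939 to 9.05 CPM in J20- libraries, lowest in library 3 (-3.27 ± 0.97, and -0.55 with the covariate). Of 25 immediate early genes 5 were positive (median -0.50, and -0.64 without J20+ library 2), and the 4 with the smallest p, Egr1, Fosb, Arc and Npas4, are genes of active neurons among other cells. Egr1 was at 24.5, 13.2, 3.96 and 60.5 CPM in J20- and 3.31, 4.01, 8.08 and 3.56 CPM in J20+ libraries (-2.43 ± 0.59), so that J20- library 3 lay in the J20+ range.

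The core clock had no shared direction between genotypes at night (24 tested, 16 positive, median 0.13), and none of its members passed or had groups that did not overlap. Clock, the activator that pairs with BMAL1, was at 72.0, 53.1, 56.7 and 52.4 CPM in J20- and 172, 36.2, 285 and 257 CPM in J20+ libraries (1.68 ± 0.50, and 2.03 without J20+ library 2). Nr1d1, the repressor REV-ERB alpha, was at 32.4, 38.1, 30.0 and 45.9 CPM in J20- and 22, 35.2, 23.1 and 13.9 CPM in J20+ libraries (-0.64 ± 0.23). J20+ library 2 lay in or below the J20- range of both. Without it 6 of the 24 were called higher and 5 lower (median 0.10), beside 29.6% and 28.1% of all genes. Rorb, a nuclear receptor gene of neurons, had the lowest value (-3.41 ± 1.01), which was -0.46 with the neural score as covariate.

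Neuron, oligodendrocyte and astrocyte markers had the lowest medians of the 41 lists. All 25 neuron markers had negative values (median -2.79) and so did all 15 oligodendrocyte markers (median -2.98). None passed, and without J20+ library 2 all 25 and 12 of 15 were called lower (medians -4.81 and -3.89), beside 28.1% of all genes. Syt1, the calcium sensor of synaptic vesicles, was at 174, 213, 26.2 and 152 CPM in J20- and 16.3, 39.0, 12.9 and 9.36 CPM in J20+ libraries (-2.87 ± 0.72, and -3.45 without J20+ library 2). The groups overlapped through J20- library 3 and J20+ library 2. Of 15 astrocyte markers 12 were negative (median -1.96, and -2.17 without J20+ library 2), and in 5 the groups did not overlap, among them Fgfr3 at 56.5, 53.6, 35.5 and 45.5 CPM in J20- and 31.8, 34.8, 21.9 and 28 CPM in J20+ libraries (-0.71 ± 0.19). Ependyma markers, from the ciliated lining of the ventricle wall, had 12 of 13 negative (median -0.43, and -0.65 without that library), with 3 not overlapping (Sntn, Tmem212 and Rarres2). In these 5 astrocyte and 3 ependyma markers the J20+ libraries lay below the J20- libraries, beside 2.86% of all genes. At day the medians of neuron and astrocyte markers had the other sign (1.05 and 0.96) and that of oligodendrocyte markers the same sign (-0.79), in other mice.

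Stromal and immune markers were described in the same way. Macrophage markers had a median of -0.43 (5 of 20 positive) and of -0.40 without J20+ library 2, and the score was 2.45 to 3.19 log2 CPM in J20- and 2.34 to 2.54 in J20+ libraries. Their lowest p belonged to P2ry12, the purine receptor that marks microglia of the brain (-1.86 ± 0.59, and -0.25 with the covariate). Medians were 0.12 for endothelium (9 of 14 positive), 0.34 for fibroblast (10 of 13) and -0.03 for mural markers (4 of 12), and without J20+ library 2 they were 0.31, 0.52 and -0.05. All 3 had scores that overlapped between genotypes, and the endothelial and mural scores were lowest in J20+ library 2. Of 14 lymphocyte and neutrophil markers 7 passed the filter on low counts, with a median of -1.06, which was -2.24 without J20+ library 2. Of 6 erythroid markers 4 did, with medians of -0.73 and -2.25. Extracellular matrix genes had a median of 0.27 (22 of 34 positive) and of 0.39 without J20+ library 2, with Hspg2, the basement membrane proteoglycan perlecan, at 109 to 120 CPM in J20- and 172, 135, 186 and 152 CPM in J20+ libraries (0.49 ± 0.16). Complement genes had a median of -0.24 (9 of 19 positive) and of -0.17 without it. C1s1, a protease that starts the classical pathway, was at 21.2, 20.6, 26.1 and 18.3 CPM in J20- libraries. In J20+ libraries it was at 36.7, 28.8, 28.3 and 31.9 CPM (0.54 ± 0.13, and 0.44 with the covariate). C1s1 was the 1 complement gene with all J20+ libraries above all J20- libraries, beside 4.28% of all genes. In 2 other complement genes all J20+ libraries lay below all J20- libraries, beside 2.86% of all genes.

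**Figure D5:**
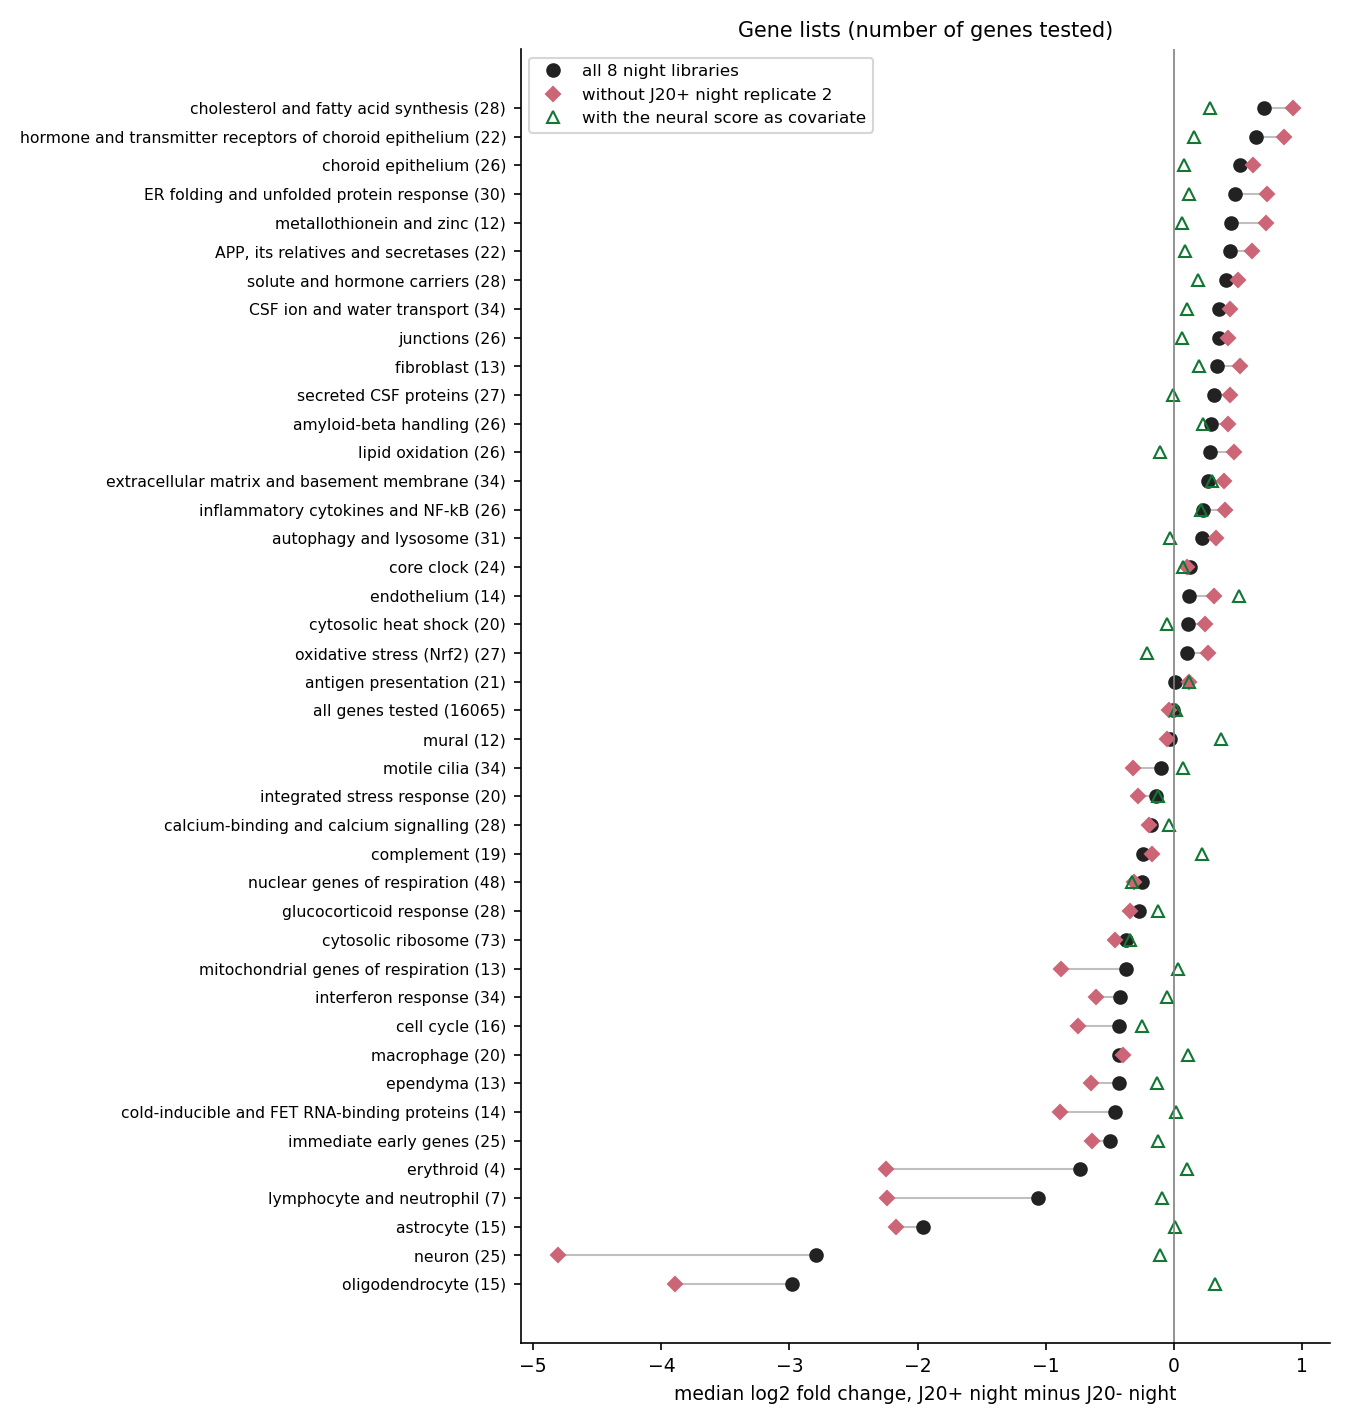
Median log2 fold change, J20+ minus J20- at night, of each gene list and of all genes tested (number of genes in parentheses), with all 8 night libraries (black), without J20+ library 2 (red diamonds) and with the neural score as covariate (open triangles). Neuron, oligodendrocyte and astrocyte lists lie at -2.79, -2.98 and -1.96 and near 0 with the covariate that they define, while the cytosolic ribosome lies at -0.37, -0.46 and -0.34.

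The same genotype difference at day called no gene of 16065 (300 at an unadjusted p under 0.05). The difference between the night and the day difference called none either (1992 at an unadjusted p under 0.05), and 3409 of 16310 without J20+ night library 2. DESeq2 called 3 genes and limma-voom with quality weights 5382 for that difference with all libraries. The J20- night libraries held 3 of the 4 highest neural scores of all 16.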

How the data were processed

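Choroid plexus libraries (TruSeq Stranded mRNA, NovaSeq) were counted by the authors, and the deposited values are raw read counts per Entrez gene in 1 table of 16 libraries. The submitters' processing notes give mm10 as the build and list HISAT2 2.2.1 with featureCounts 2.0.1, besides cutadapt, DESeq2, Picard 2.18.2 and FastQC 0.11.8. No strand setting or annotation is given in the sources used here, so reads of overlapping or antisense genes cannot be told apart. Of 27179 identifiers, 25275 (93%) matched a RefSeq symbol of GRCm38.p6.

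Genes were filtered with filterByExpr by group, scaled by TMM, and tested by the quasi-likelihood test of edgeR 4.0.16 (R 4.3.3) on all 16 libraries, with 1 coefficient per group, so that both times shared 1 estimate of the spread. Benjamini-Hochberg adjustment ran over 16065 genes, with a threshold of 0.05. The SE was taken as log2 fold change over the root of F. CPM is counts scaled to a common library size, and a prior count of 2 was added for log2 CPM. The steps were run on simulated counts drawn independently for each gene and library. These held no shared shift of brain tissue markers or GC content, so they do not show how the steps handle such shifts. P-values weigh a difference against the spread between mice of the same group, estimated over all 16 libraries.

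Named genes were App and Zbtb20, then the called gene and those with the next smallest p up to 20, and in each list described up to 4 members with the smallest p. Members of a list whose groups did not overlap, and Ttr, were named after their values were seen. The 41 lists (1017 members written, 1016 matched, 61 genes in more than 1 list) and the comparison were chosen with earlier results of these data known. Lists got no test.

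Alternatives were RLE scaling, scaling on choroid epithelium markers, DESeq2 1.42.0, limma-voom with quality weights (limma 3.58.1), no filter, a filter of 10 CPM in 4 libraries, neural or choroid score as covariate, a fit on the compared groups only, and each library left out in turn. Alternatives chosen after seeing the data were the neural covariate without J20+ night library 2, the night groups alone without it, and leaving out J20- day library 4.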

Additional observations from a re-analysis of the deposited data

Results flagged for a closer look

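In 7 of 66 groups of 4 night libraries looked at (the named genes, marker scores and total counts), 1 library lay far from the other 3 by Dixon's outlier test. The rate by chance is about 5 in 100 for independent groups. These groups share the same 8 libraries, and most of the genes were picked by p in them, so 7 of 66 cannot be read against that rate. J20+ night library 2 was the lowest in 3 of the 7 groups, App (495 CPM), the anion transporter gene Slc26a7 (4.98 CPM) and the choroid epithelium score (9.18 log2 CPM). J20- night library 3 was the lowest in the neuron score (2.52 log2 CPM) and in the reticulon gene Rtn2 (9.13 CPM). J20- night library 4 was the highest in the non-coding RNA gene 1500009C09Rik (38.9 CPM), and J20- night library 1 had the highest endothelium score (3.78 log2 CPM).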

How the results depend on the processing

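At night J20+ libraries had a higher mean depth (exact permutation p = 0.0857) and a lower mean neural score. Both overlapped between genotypes through J20+ night library 2. Mean depth was also higher in J20+ at day, and 4 mice per group limit every statement. The number of genes called between J20+ and J20- at night was 1, and it was 0 with RLE scaling, with choroid marker scaling, without a filter, with the 10 CPM filter, with the neural or the choroid score as covariate, and in the night groups alone. It was 3044 by DESeq2 and 11588 by limma-voom with quality weights. Leaving out 1 of the 8 libraries gave 0 to 9414 genes. It was 107 without J20- night library 3, 9414 without J20+ night library 2, and 0 without each of the other 6. Of the alternatives chosen after seeing the data, the neural covariate without J20+ night library 2 gave 0, the night groups alone without it 9489, and leaving out J20- day library 4 gave 8. Why these counts differ was not tested. Necab2 had a lower J20+ value in all 20 alternatives (log2 fold change -1.70 to -1.03) and was called in 6 of them (adjusted p from 4.56e-08 to 0.497). At day 0 genes were called in each alternative except limma-voom (2369). The difference between night and day had 0 genes except 3 by DESeq2, 5382 by limma-voom, and 3409 without J20+ night library 2 (0 to 3409 over left-out libraries). The difference in total counts was 7.4M to 12.6M over left-out libraries, and 12.6M (exact p = 0.0286) without J20+ night library 2. No paired analysis was possible because every library is a different mouse and the numbers only name the libraries.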
